A study of Mus musculus with 8 samples.

Results

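The matrix metalloproteinases (MMPs), the ADAMTS proteases and the tissue inhibitors of metalloproteinases (TIMPs) are described here at their promoters and gene bodies in mouse pancreatic ductal adenocarcinoma cells without and with Setd2. Genes were taken by name, as every gene of the table called MMP, ADAMTS or TIMP and a number, which gave 46 of 25251 genes: 23 MMP, 19 ADAMTS and 4 TIMP genes. The rule used names only, but it was set with earlier results of these data known. The cells were pancreatic tumor cells of C57BL/6 background, labelled as cultured, and the title of the series speaks of cells sorted from orthotopic tumours, which grow from cells implanted in the pancreas. CUT&Tag, in which antibody-bound transposase cuts and tags the DNA near a histone mark for sequencing, gave 8 libraries: promoter H3K27ac without the word vitro in its label in Setd2 knockout (KO) and wild-type (WT) cells, promoter H3K27ac labelled vitro in KO and WT cells, promoter H3K27me3 in KO and WT cells, and gene-body H3K36me3 in KO and WT cells. Each group had 1 library, so no difference below has a replicate check or a test. Neither the number of cell lines nor the way the knockout was made is stated in the labels.

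MMPs and ADAMTS proteases are zinc enzymes made as inactive precursors. MMPs cut collagens, gelatin, laminin and other matrix proteins, ADAMTS proteases cut proteoglycans and process procollagens, and TIMPs bind the active site of these enzymes and block it. In pancreatic cancer they are known for the turnover of the dense collagen-rich stroma, where much of the supply comes from fibroblasts and leukocytes besides the tumour cells. H3K27ac marks active promoters, H3K27me3 is the mark of Polycomb repression, and H3K36me3 is laid down by Setd2 along transcribed gene bodies.

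The family holds promoters of opposite base composition, and the letters below show both kinds. Promoter sequences of 300 bases (250 before and 50 after the transcription start, RefSeq, GRCm38.p6) were matched for 32 of the 46 genes. The first set comes from the MMP cluster on chromosome 9, with Mmp10 at chr9:7502092-7502391, Mmp13 at chr9:7272264-7272563 and Mmp3 at chr9:7445572-7445871, all on the plus strand. Capitals mark the letters of an AP-1 site, TGAGTCA on one strand and TGACTCA on the other, and of a TATA box, TATAAA.
Mmp10: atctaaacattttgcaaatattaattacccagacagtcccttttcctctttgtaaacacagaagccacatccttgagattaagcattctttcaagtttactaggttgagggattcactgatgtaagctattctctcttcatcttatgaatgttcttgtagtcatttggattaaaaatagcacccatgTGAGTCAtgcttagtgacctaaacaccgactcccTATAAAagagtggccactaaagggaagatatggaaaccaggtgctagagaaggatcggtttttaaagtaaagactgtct
Mmp13: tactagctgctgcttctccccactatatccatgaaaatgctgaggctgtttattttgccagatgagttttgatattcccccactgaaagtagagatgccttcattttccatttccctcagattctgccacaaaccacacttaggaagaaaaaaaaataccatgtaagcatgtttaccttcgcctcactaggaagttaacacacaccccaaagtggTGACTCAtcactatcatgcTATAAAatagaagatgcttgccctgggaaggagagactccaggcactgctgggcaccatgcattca
Mmp3: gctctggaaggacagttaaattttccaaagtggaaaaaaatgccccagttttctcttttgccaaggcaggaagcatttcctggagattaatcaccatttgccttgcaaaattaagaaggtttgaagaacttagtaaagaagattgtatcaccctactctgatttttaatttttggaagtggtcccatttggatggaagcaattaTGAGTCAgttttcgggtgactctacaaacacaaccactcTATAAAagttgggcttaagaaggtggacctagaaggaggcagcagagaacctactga
In each of these 3 promoters the AP-1 letters lie upstream of the TATA letters. The first letter of the AP-1 match stood at -63, -35 and -46 bases from the start in Mmp10, Mmp13 and Mmp3, and that of the TATA match at -29, -16 and -7 bases. The AP-1 letters were found, on either strand, in 6 of the 32 promoters (18.8%), against 1387 of 27025 mouse promoters of the same length (5.13%). All 6 belong to the chromosome 9 cluster: Mmp1a, Mmp1b, Mmp3, Mmp7, Mmp10 and Mmp13. TATAAA or its other strand, TTTATA, was found in 10 of the 32 (31.2%), against 14.2% of all promoters. The matches of the motifs do not overlap in the 3 printed promoters. A match is a description of the letters, not a site or a cause.

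The second set is shown for CpG content, with each CG in capitals. The first 4 are the other matched promoters with higher H3K27ac in vitro KO than in vitro WT cells, and the last is the one highest in H3K27me3 in KO cells: Mmp27 (chr9:7571146-7571445, plus strand), Timp1 (chrX:20869916-20870215, plus), Timp3 (chr10:86300162-86300461, plus), Adamts14 (chr10:61273370-61273669, minus) and Mmp24 (chr2:155775092-155775391, plus).
Mmp27: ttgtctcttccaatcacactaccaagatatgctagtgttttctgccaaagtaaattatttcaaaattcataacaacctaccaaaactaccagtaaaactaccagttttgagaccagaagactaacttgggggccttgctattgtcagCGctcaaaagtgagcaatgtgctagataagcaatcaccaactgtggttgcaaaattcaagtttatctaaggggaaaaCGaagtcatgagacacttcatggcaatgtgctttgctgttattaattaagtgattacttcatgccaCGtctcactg
Timp1: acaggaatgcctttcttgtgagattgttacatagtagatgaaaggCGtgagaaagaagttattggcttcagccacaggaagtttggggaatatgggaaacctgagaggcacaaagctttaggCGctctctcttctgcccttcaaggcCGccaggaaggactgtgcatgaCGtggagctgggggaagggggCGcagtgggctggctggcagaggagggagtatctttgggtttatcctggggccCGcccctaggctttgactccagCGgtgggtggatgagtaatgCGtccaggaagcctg
Timp3: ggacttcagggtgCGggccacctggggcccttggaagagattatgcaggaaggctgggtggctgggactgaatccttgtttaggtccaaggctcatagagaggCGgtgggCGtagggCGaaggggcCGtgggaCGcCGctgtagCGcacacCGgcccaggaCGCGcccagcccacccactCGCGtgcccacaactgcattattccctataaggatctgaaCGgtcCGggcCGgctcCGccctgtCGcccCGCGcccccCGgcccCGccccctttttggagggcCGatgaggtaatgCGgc
Adamts14: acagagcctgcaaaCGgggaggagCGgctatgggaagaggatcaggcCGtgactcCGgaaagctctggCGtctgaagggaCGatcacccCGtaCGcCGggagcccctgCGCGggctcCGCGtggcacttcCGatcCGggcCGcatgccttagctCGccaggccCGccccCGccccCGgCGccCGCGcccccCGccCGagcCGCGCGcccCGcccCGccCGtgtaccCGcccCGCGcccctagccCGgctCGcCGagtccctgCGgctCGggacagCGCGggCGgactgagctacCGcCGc
Mmp24: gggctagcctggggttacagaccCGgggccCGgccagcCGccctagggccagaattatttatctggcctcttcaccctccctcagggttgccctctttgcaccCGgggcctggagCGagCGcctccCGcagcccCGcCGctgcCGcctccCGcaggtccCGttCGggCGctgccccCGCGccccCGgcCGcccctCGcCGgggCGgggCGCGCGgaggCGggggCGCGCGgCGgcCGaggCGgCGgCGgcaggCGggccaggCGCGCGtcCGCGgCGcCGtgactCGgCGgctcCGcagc
Mmp27 has 3 CpG, Timp1 8, Timp3 24, and Adamts14 and Mmp24 have 44 each, where the median mouse promoter has 7. With Mmp10, which has 2, the 5 matched of the 7 promoters with higher acetylation in vitro KO cells run from 2 to 44 CpG.

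Signal is given per kilobase, the deposited mean coverage per base times 1000. Promoter values behaved as whole read ends over a window of 6000 bases, so each could be turned back into fragments: 1 fragment was worth 0.11 to 0.115 per kilobase, and the promoter windows of a library held about 2164220 to 3313120 fragments. The 46 promoters had medians of 37.2 to 96.5 fragments per library, and their lowest values rested on 0 to 13. The 95% intervals below are exact Poisson intervals of those fragments. They cover counting error only, and neither the spread between cultures nor repeated copies of 1 molecule. Promoter windows of neighbouring genes can overlap, and reads in the overlap cannot be assigned to 1 gene. KO and WT were compared as log2((KO + floor) / (WT + floor)), where the floor is the 25th percentile of the positive values of the pair: 3.29, 2.18, 1.54 and 2.65 per kilobase for H3K27ac without the vitro label, vitro H3K27ac, H3K27me3 and H3K36me3. A gene counted as higher or lower when its mean over the pair reached the floor and this ratio was at least 2-fold, and the ratio understates differences at low signal.

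As a check of the label, the promoter of Setd2 carried H3K27ac of 25.1 per kilobase in KO and 15.6 in WT cells, and 18.8 in vitro KO and 19.4 in vitro WT cells. Its gene body had H3K36me3 of 2.32 in KO and 2.38 in WT cells, values that cannot show a deletion inside the gene. Over all genes, H3K36me3 averaged 5.19 per kilobase in KO and 5.80 in WT cells, but its median was 2.9997 in KO and 2.72 in WT cells, and 28.3% of genes in KO and 32.9% in WT cells were listed at 0. The direction over all genes thus depended on the statistic. Most ductal epithelial markers, which fit the labelled cell type, were acetylated, with 7 of 9 above the 75th percentile of genes in KO and 7 of 9 in WT cells, and 5 of 9 in vitro KO and 7 of 9 in vitro WT cells. Of 10 fibroblast markers, 2 in KO, 0 in WT, 1 in vitro KO and 0 in vitro WT cells were above it. Their summed H3K27ac was 125 per kilobase in KO and 79.7 in WT cells, and 66.6 in vitro KO and 28.8 in vitro WT cells. The vitro sum rested largely on the collagens Col1a1, with 23.8 in vitro KO and 5.29 in vitro WT cells, and Col3a1, with 17.7 in vitro KO and 0.920 in vitro WT cells, while Col1a2 had 1.26 in vitro KO and 3.68 in vitro WT cells. The sum over 11 leukocyte markers was 81.0 in KO and 68.9 in WT cells, and 125 in vitro KO and 72.6 in vitro WT cells. The 5 endothelial markers summed to 37.2 in KO and 35.0 in WT cells and to 15.4 in vitro KO and 14.2 in vitro WT cells, and the 4 acinar markers found to 25.7 in KO and 45.3 in WT cells and to 12.0 in vitro KO and 17.0 in vitro WT cells. No marker of these 5 lists was at 0 in any H3K27ac library except Prss1, an acinar trypsinogen, in KO cells without the vitro label. The sums were carried by few genes. Of the 11 leukocyte markers 4 were higher and 7 lower in KO cells in each pair, and the sum rested on Cd68, a macrophage protein, with 46.01 in KO and 16.2 in WT cells, and on Ly6g, a neutrophil protein, with 56.8 in vitro KO and 10.6 in vitro WT cells. Of the 10 fibroblast markers 8 were higher and 2 lower in KO cells without the vitro label, and 5 were higher and 5 lower in vitro. The part of other cell types in the results was not tested. In bulk libraries, fewer cells of a type and less mark per cell cannot be told apart.

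Among the 46 genes, 7 promoters were higher and 2 lower in H3K27ac in vitro KO cells than in vitro WT cells. Of all 18955 genes past the floor in that pair, 3.95% were higher and 3.57% lower. In the pair without the vitro label 4 were higher and 2 lower in KO cells, where 13.1% of all genes were higher and 4.32% lower. In H3K27me3 4 were higher and 2 lower in KO cells, against 15.4% and 6.92% of all genes. The floor was passed by 37, 38 and 42 of the 46 promoters in those 3 comparisons. The shares of the family were therefore close to or under the background in 2 of the 3 promoter comparisons, and above it for higher vitro H3K27ac.

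The median log2 ratio over all 46 genes, whether past the floor or not, was 0.09 in vitro H3K27ac, beside -0.07 over all genes. It was 0.16 in H3K27ac without the vitro label, beside 0.13 over all genes, and 0.04 in H3K27me3, beside 0.15. No 2-fold difference past the floor was found in any of the 3 promoter comparisons at 27 of the 46 genes, where 69.2% of all genes had none. Of the 32 genes of the family past the floor in all 3, 15 had none, beside 58% of all such genes. Over genes past the floor the median ratio was 0.18 in H3K27me3 and 0.32 in the H3K27ac pair that is not labelled vitro. Centred on those medians, 4.42% of genes were higher and 9.31% lower in H3K27ac, with 1 higher and 3 lower in the family. In H3K27me3 10.7% were then higher and 10.3% lower, with 2 higher and 2 lower in the family. The 4 comparisons, H3K36me3 included, gave 31 differences of 2-fold between the genotypes. Of these, 8 stayed past 2-fold under each change of pseudocount, filter, scaling or row of a gene. They were Timp3, Adamts14, Adamts4 and Mmp23 in vitro H3K27ac, Mmp15 in H3K27me3, and Mmp11, Mmp17 and Mmp28 in H3K36me3.

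**Figure D1:**
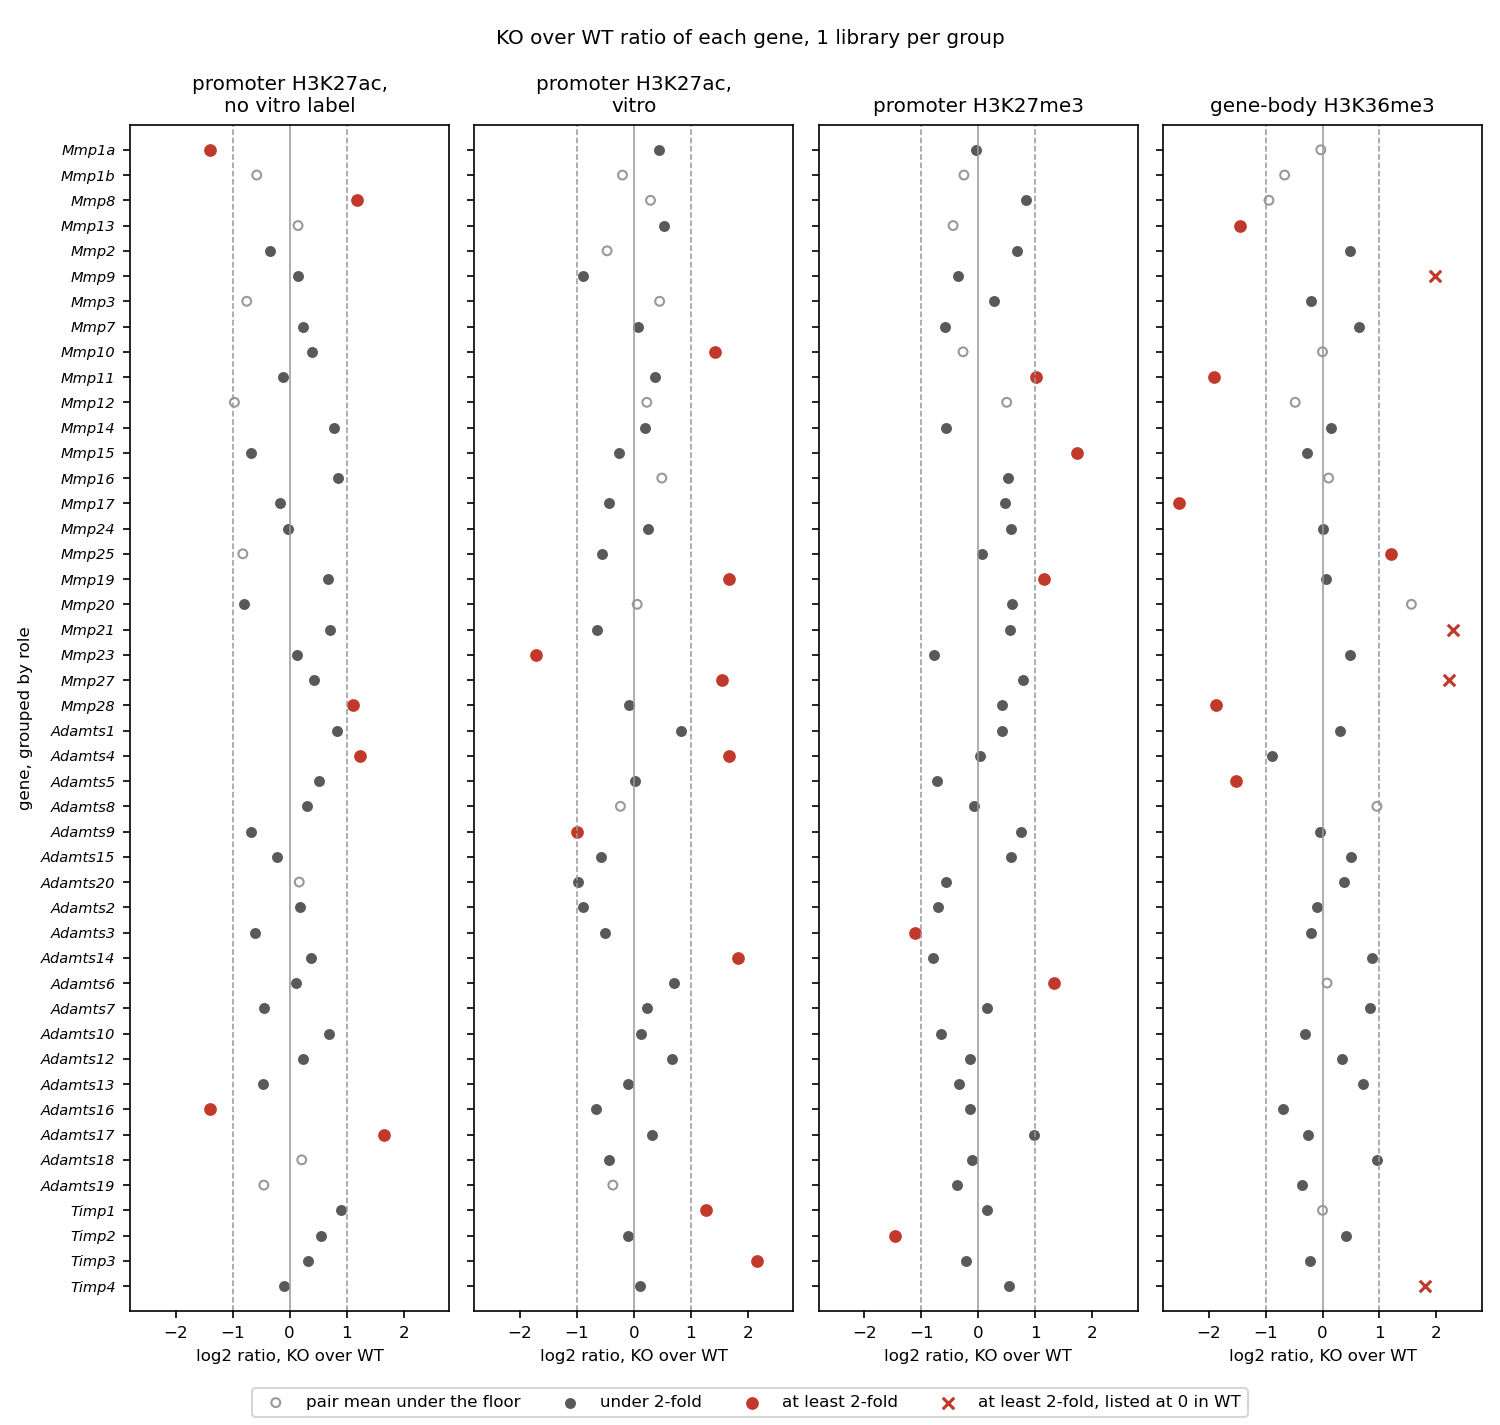
Log2 ratio of KO over WT for each of the 46 genes (vertical axis, grouped by role) in the 4 comparisons, with dashed lines at 2-fold. Red points are genes at least 2-fold different past the floor, red crosses genes listed at 0 in WT cells, and open points genes under the floor; Timp3 at 2.16 is the highest ratio of vitro H3K27ac and Mmp17 at -2.53 the lowest of H3K36me3.

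Of the 4 inhibitors, Timp3 and Timp1 were past 2-fold in vitro H3K27ac and Timp2 in H3K27me3, and Timp4 in no promoter comparison. Timp3, a matrix-bound inhibitor (chromosome 10, 86300372 to 86349506, plus strand), had 19.8 per kilobase of H3K27ac in vitro KO cells (interval 17.0 to 23.0) and 2.76 in vitro WT cells (1.77 to 4.10), a log2 ratio of 2.16. Without the vitro label it had 17.5 in KO and 13.4 in WT cells. The vitro WT library was the low one among the 4, and the other 3 values lay between 13.4 and 19.8. Timp1, a secreted inhibitor that is also known as a growth factor-like protein (chromosome X, 20870166 to 20874735, plus strand), had 26.8 in vitro KO (23.4 to 30.4) and 9.88 in vitro WT cells (7.91 to 12.2), a log2 ratio of 1.26. In the other pair it had 23.7 in KO and 11.1 in WT cells, a log2 ratio of 0.91, just under 2-fold. Both KO libraries were therefore above both WT libraries at Timp1.

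Timp2, the inhibitor that also helps Mmp14 to activate Mmp2, was the inhibitor with the most H3K27ac in each library. It had 44.8 in KO and 29.7 in WT cells, and 64.2 in vitro KO and 69.4 in vitro WT cells. Its H3K27me3 was 3.90 per kilobase in KO cells (2.73 to 5.42) and 13.5 in WT cells (11.2 to 16.1), a log2 ratio of -1.47 and the lowest of the family in that mark. H3K27me3 differed little at the other 3 inhibitors. Timp1 had 4.18 in KO and 3.62 in WT cells, Timp3 12.8 in KO and 15.1 in WT cells, and Timp4, best known from heart tissue, 8.69 in KO and 5.54 in WT cells. Timp4 had 8.54 in KO and 9.37 in WT cells of H3K27ac, and 4.12 in vitro KO and 3.68 in vitro WT cells.

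The interstitial collagenases, which cut intact fibrillar collagen, had H3K27ac of 11.2 per kilobase or less in every library. Mmp13, a main rodent collagenase, had 3.18 in KO and 2.55 in WT cells, and 10.8 in vitro KO and 6.84 in vitro WT cells. Its H3K27me3 was the lowest of the family in KO cells: 0 fragments, which allows up to 0.406 per kilobase, and 0.548 in WT cells (0.178 to 1.28). Mmp8, the neutrophil collagenase, had H3K27ac of 11.2 in KO (9.11 to 13.6) and 3.11 in WT cells (2.06 to 4.49), a log2 ratio of 1.18, but 2.17 in vitro KO and 1.38 in vitro WT cells, under the floor. Mmp1a had 0.548 in KO and 6.76 in WT cells, a log2 ratio of -1.39, and 4.18 in vitro KO and 2.53 in vitro WT cells. The Mmp1a ratios of the pairs had opposite signs and rested on 5 to 61 fragments. Mmp1b, its neighbour and near copy in the mouse, stayed under the floor in all 3 promoter comparisons, and reads of the pair could be assigned to either.

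The gelatinases, which digest denatured collagen and basement membrane collagen, did not differ by 2-fold between the genotypes in any promoter mark. Mmp2 had H3K27ac of 5.37 in KO and 7.71 in WT cells, and 0.800 in vitro KO and 1.95 in vitro WT cells, under the floor. Its H3K27me3 was 6.93 in KO and 3.73 in WT cells. Mmp9 had H3K27ac of 11.0 in KO and 9.59 in WT cells, and 3.43 in vitro KO and 8.28 in vitro WT cells, a log2 ratio of -0.90. H3K27me3 at Mmp9 reached 107 per kilobase in KO (100.4 to 113.9) and 138 in WT cells (130.1 to 145.5), which placed it above 98.4% of genes in KO and 99.8% in WT cells. The 2 gelatinase promoters thus lay far apart in H3K27me3 in both genotypes.

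Among stromelysins, matrilysin and metalloelastase, Mmp10 (stromelysin-2) had H3K27ac of 9.21 in vitro KO (7.31 to 11.5) and 2.07 in vitro WT cells (1.23 to 3.27), a log2 ratio of 1.42, and 6.35 in KO and 4.10 in WT cells without the vitro label. Mmp11, stromelysin-3, differed in H3K27me3, with 21.2 in KO (18.3 to 24.4) and 9.76 in WT cells (7.83 to 12.0), a log2 ratio of 1.01. Its neighbours Chchd10 and Gm867, whose starts lie 3366 and 4176 bases away, had 23.9 and 18.03 in KO cells and 10.3 and 6.03 in WT cells, and overlapping windows could share reads. Mmp11 H3K27ac was 8.22 in KO and 9.20 in WT cells, and 12.9 in vitro KO and 9.48 in vitro WT cells. Mmp7, the matrilysin of epithelial cells, had 4.49 in KO and 3.33 in WT cells, and 2.402 in vitro KO and 2.18 in vitro WT cells. Mmp3 and Mmp12 stayed under the floor in both H3K27ac pairs. Mmp3, stromelysin-1, rested on 1 fragment in KO and 22 in WT cells without the vitro label.

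The membrane-type MMPs act at the cell surface. Mmp14, which activates Mmp2 and cuts collagen, was the only one of the 6 among the 5 most acetylated genes of the family in any library. It had H3K27ac of 46.8 in KO and 26.1 in WT cells, a log2 ratio of 0.77, and 40.7 in vitro KO and 35.2 in vitro WT cells. Mmp15 (chromosome 8, 95352268 to 95375080, plus strand) had the highest H3K27me3 ratio of the family, with 40.5 in KO (36.4 to 44.8) and 11.1 in WT cells (9.02 to 13.5), a log2 ratio of 1.74. Its H3K27ac was 11.7 in KO and 20.51 in WT cells, and 3.55 in vitro KO and 4.66 in vitro WT cells. Mmp24 and Mmp17, known from nervous tissue and anchored in different ways, carried the most H3K27me3 of the membrane type. Mmp24 had 123 in KO and 82.4 in WT cells, and Mmp17 102 in KO and 73.2 in WT cells. Each of these 3 genes was higher in KO cells, of which Mmp15 alone was past 2-fold.

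Of the other MMPs, Mmp19 and Mmp27 were higher in vitro KO cells. Mmp19, which cuts basement membrane proteins, had H3K27ac of 16.0 in vitro KO (13.5 to 18.9) and 3.56 in vitro WT cells (2.42 to 5.06), a log2 ratio of 1.66, and 14.4 in KO and 7.82 in WT cells in the other pair. Its H3K27me3 was also past 2-fold, with 2.86 in KO and 0.438 in WT cells on 26 and 4 fragments, the WT value lying under the floor. By these calls Mmp19 was the only gene of the family past 2-fold in vitro H3K27ac and in H3K27me3. The H3K27me3 log2 ratio of Mmp19 ran from 0.38 to 2.09 over the settings tried. It lost 2-fold under a larger pseudocount, a filter at the median and other scalings. Mmp27 had 15.5 in vitro KO (13.0 to 18.3) and 3.91 in vitro WT cells (2.71 to 5.46), a log2 ratio of 1.54, and 6.46 in KO and 3.94 in WT cells. Mmp23 went the other way: 15.7 in vitro KO (13.2 to 18.5) and 56.4 in vitro WT cells (51.5 to 61.6), a log2 ratio of -1.71, but 38.2 in KO and 34.8 in WT cells without the vitro label. Mmp28, epilysin, was higher in KO cells without the vitro label, at 30.5 (26.98 to 34.2) and 12.4 in WT cells (10.2 to 14.9), a log2 ratio of 1.11, with 19.4 in vitro KO and 20.9 in vitro WT cells. At Mmp23 and Mmp28 the 2 pairs therefore gave different pictures, and the difference between pairs was not tested.

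The proteoglycan-cleaving ADAMTS genes held the most acetylated promoter of the family in both KO libraries. Adamts4, aggrecanase-1 (chromosome 1, 171250421 to 171260637, plus strand), had H3K27ac of 100.1 per kilobase in vitro KO (93.6 to 106.9) and 29.8 in vitro WT cells (26.3 to 33.7), a log2 ratio of 1.68. In the other pair it had 66.4 in KO (61.3 to 71.9) and 26.5 in WT cells (23.2 to 30.1), a log2 ratio of 1.23. It was the only gene of the family past 2-fold in the same direction in both H3K27ac pairs, and both KO libraries were above both WT libraries. In the pair without the vitro label its log2 ratio was as low as 0.43 under other scalings or a larger pseudocount, while in the vitro pair it stayed at 1.45 or above. H3K27me3 at Adamts4 was 6.27 in KO and 6.14 in WT cells.

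Adamts1, which cuts versican and aggrecan, had 72.9 in vitro KO and 40.4 in vitro WT cells, and 57.5 in KO and 30.9 in WT cells, with log2 ratios of 0.82 and 0.83. Both ratios were under 2-fold, and Adamts1 was among the 3 most acetylated of the family in all 4 H3K27ac libraries. Adamts9 lay just past the threshold in vitro, with 1.60 in vitro KO and 5.40 in vitro WT cells and a log2 ratio of -1.003. Adamts20, at -0.98, lay just short of it. Adamts9 had 7.78 in KO and 14.4 in WT cells in the other pair. The start of 9530026P05Rik lies 2910 bases away from that of Adamts9. It had 1.83 in vitro KO and 6.26 in vitro WT cells, and 5.48 in KO and 17.02 in WT cells, and overlapping windows could share reads. Adamts8 carried H3K27me3 of 48.7 in KO and 51.1 in WT cells, and Adamts5, the other main aggrecanase, 14.0 in KO and 24.1 in WT cells.

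The procollagen N-propeptidases trim fibrillar procollagens so that they can form fibrils. Adamts14 (chromosome 10, 61197112 to 61273438, minus strand) had H3K27ac of 25.5 in vitro KO (22.3 to 29.1) and 5.63 in vitro WT cells (4.17 to 7.44), a log2 ratio of 1.83, and 18.8 in KO and 13.6 in WT cells. Its H3K27me3 was 23.6 in KO and 41.9 in WT cells, a log2 ratio of -0.79. Adamts2, the main enzyme of skin collagen, had 2.17 in vitro KO and 5.92 in vitro WT cells of H3K27ac, and 11.8 in KO and 10.03 in WT cells. Adamts3 had H3K27me3 of 3.24 in KO (2.18 to 4.64) and 8.77 in WT cells (6.95 to 10.9), a log2 ratio of -1.11. All 3 genes had less H3K27me3 in KO cells, and their H3K27ac did not share a direction in the vitro pair.

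Among the remaining ADAMTS genes, Adamts17 had H3K27ac of 24.98 in KO (21.8 to 28.4) and 5.71 in WT cells (4.26 to 7.50), a log2 ratio of 1.65, and 4.35 in vitro KO and 3.05 in vitro WT cells. Its H3K27me3 was 45.02 in KO and 22.2 in WT cells, a log2 ratio of 0.97. Both opposing marks were thus higher in KO cells at this promoter, the second just under 2-fold. Adamts16 had H3K27ac of 2.36 in KO and 11.6 in WT cells, a log2 ratio of -1.40, and 1.60 in vitro KO and 3.79 in vitro WT cells. Adamts6 had H3K27me3 of 3.96 in KO and 0.658 in WT cells, a log2 ratio of 1.32 on 36 and 6 fragments, the WT value lying under the floor. The Adamts6 ratio ran from 0.48 to 2.14 over the settings tried. It lost 2-fold under a larger pseudocount, a filter at the median and trend correction. Adamts12, which cuts a matrix protein of cartilage, had H3K27ac of 9.86 in KO and 7.87 in WT cells, 9.89 in vitro KO and 5.46 in vitro WT cells, and H3K27me3 of 26.6 in KO and 29.5 in WT cells.

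**Figure D2:**
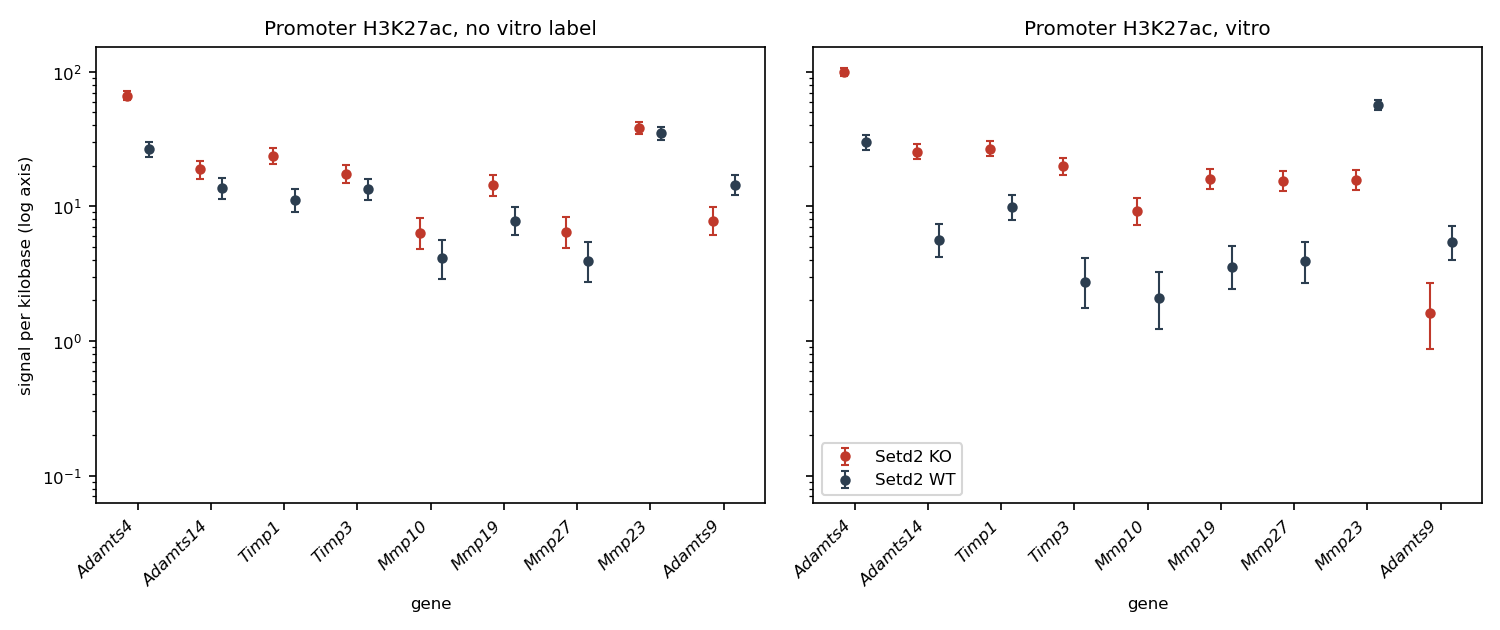
Promoter H3K27ac per kilobase (log axis) of the 9 genes past 2-fold in the vitro pair, in the pair without the vitro label (left) and the vitro pair (right), KO in red and WT in dark blue. Bars are exact 95% Poisson intervals of the fragments; Adamts4 reaches 100.1 in vitro KO cells, and Mmp23 is lower, with 15.7 in vitro KO and 56.4 in vitro WT cells.

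No gene of the family was past 2-fold higher in H3K27ac and lower in H3K27me3, or the reverse, and with so few genes past 2-fold this count shows little. The signs of the KO over WT ratios of the marks were opposite at 18 of the 46 genes in the vitro pair. In the pair without the vitro label they were opposite at 29. Genes under the floor are included, and the share of all genes with such calls or signs was not computed. Across the 46 genes the rank correlation of the KO over WT ratios of H3K27me3 with those of H3K27ac was 0.20 in the vitro pair. In the pair without the vitro label it was -0.05, and the genes share 4 libraries in each case. Over all genes past both floors it was -0.06 in the vitro pair (14970 genes) and 0.02 in the other pair (14783 genes). These are weak relations and are given as a description.

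H3K27me3 was above the median gene at most promoters of the family in both genotypes. The median over the 46 promoters was 10.6 per kilobase in KO and 9.26 in WT cells, where the median of all genes was 3.85 in KO and 3.23 in WT cells. Of the 46, 34 in KO and 36 in WT cells were above the median of all genes, and 24 in KO and 23 in WT cells were above the 75th percentile. H3K27ac was near or below the median gene: the median of the family was 7.01 in KO and 7.43 in WT cells and 4.26 in vitro KO and 4.51 in vitro WT cells, where all genes had 8.33 in KO, 7.54 in WT, 6.69 in vitro KO and 6.90 in vitro WT cells. The family thus had many promoters high in the Polycomb mark and a few that were strongly acetylated, chiefly Adamts4, Adamts1, Timp2, Mmp14 and Mmp23.

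**Figure D3:**
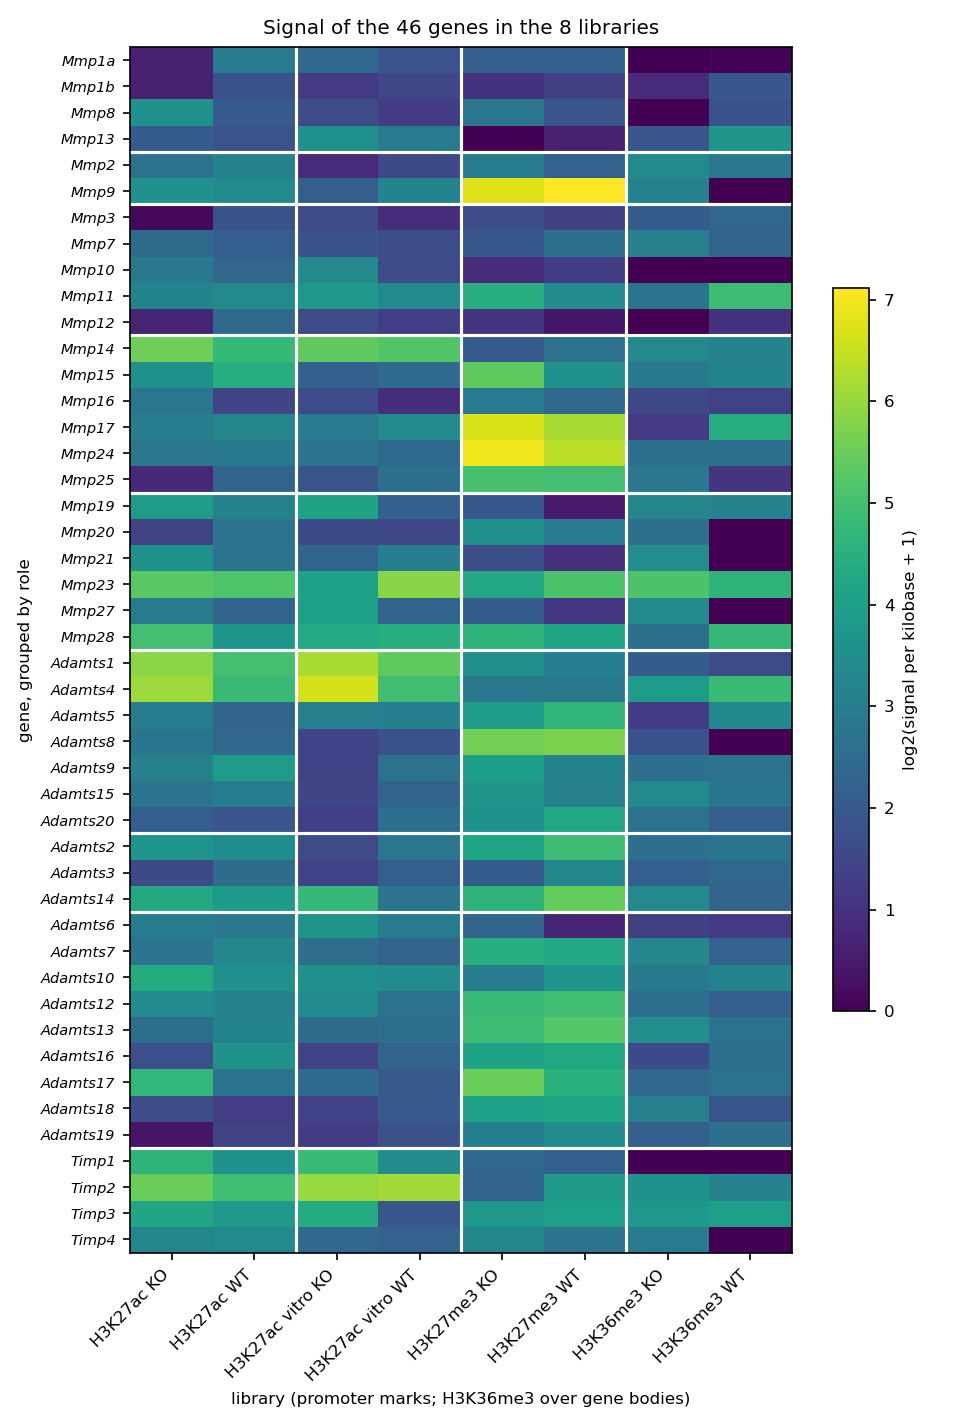
Signal of the 46 genes (vertical axis, white lines between roles) in the 8 libraries (horizontal axis), as log2(signal per kilobase + 1), KO left of WT in each pair. Yellow shows high signal: Mmp9, Mmp17 and Mmp24 stand out in H3K27me3 and Adamts4 in vitro KO H3K27ac, and dark cells in the H3K36me3 columns include genes listed at 0.

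Among the 32 matched promoters of the family, H3K27me3 was higher at those with more CpG. The other 14 genes have no CpG count here. They include Mmp9, Mmp17 and Adamts8, which with Mmp24 were the 4 highest of the family in H3K27me3 in both genotypes. Of the 15 matched promoters with fewer than 10 CpG, 10 belong to the chromosome 9 cluster. Low CpG content and membership of that cluster cannot be told apart for these 10. The 15 matched promoters with fewer than 10 CpG had a median H3K27me3 of 3.19 in KO and 2.69 in WT cells, close to the 8125 genes of that class, with 3.41 in KO and 3.40 in WT cells. The 17 with 10 or more CpG had 17.0 in KO and 17.1 in WT cells, where the 10603 genes of that class had 4.07 in KO and 2.96 in WT cells. The rank correlation of CpG count with H3K27me3 over the 32 promoters was 0.59 in KO and 0.70 in WT cells, and over 18728 genes 0.13 in KO and 0.02 in WT cells. The genes share a library in each correlation, and the letters cover 300 bases of the 6000-base window. Of the 32 matched promoters, Mmp24, printed above with its 44 CpG, was the highest, at 123 in KO and 82.4 in WT cells. Mmp13 with 1 CpG was the lowest of them in KO cells. Some genes lay away from the trend. Adamts13, with 2 CpG, had H3K27me3 of 28.8 in KO and 36.9 in WT cells, and Adamts12, with 7 CpG, 26.6 and 29.5. Timp2, with 25 CpG, had 3.90 in KO and 13.5 in WT cells, and Adamts3, with 41 CpG, 3.24 and 8.77.

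**Figure D4:**
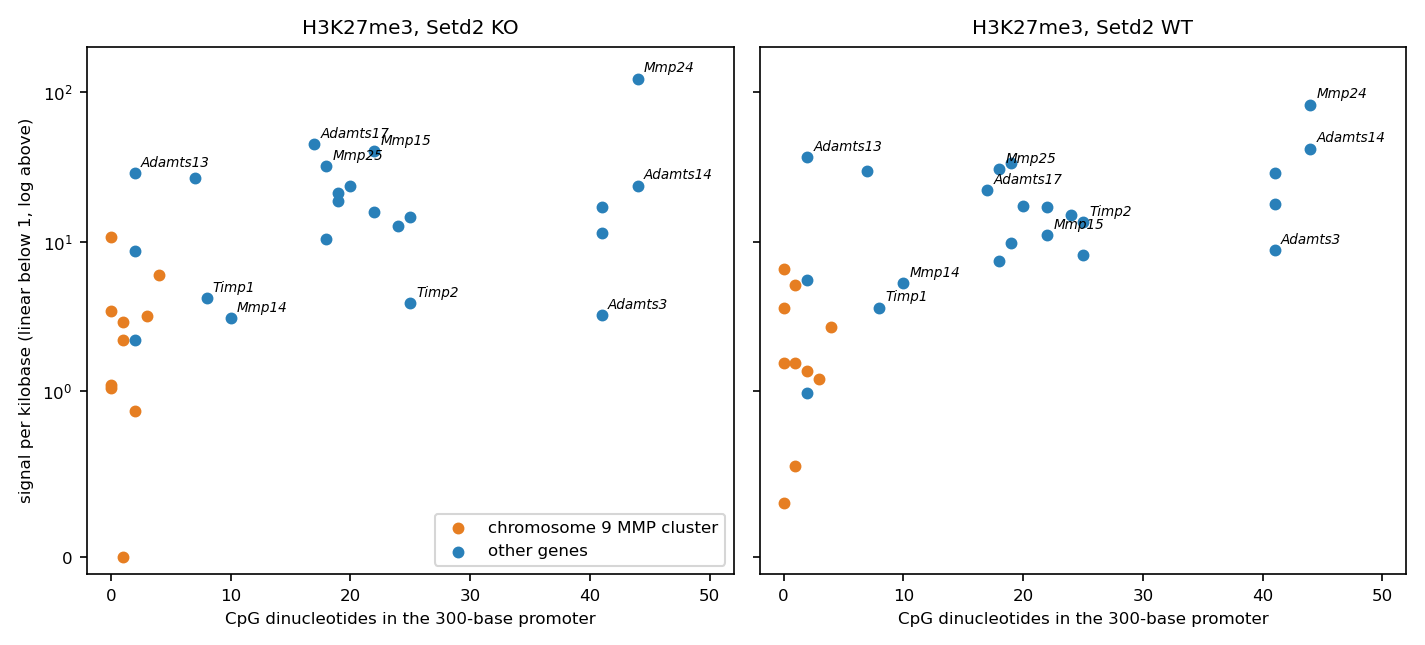
H3K27me3 per kilobase (vertical axis, linear below 1 and log above) against the number of CpG in the 300-base promoter for the 32 matched genes, in KO (left) and WT cells (right). Orange points are the 10 genes of the chromosome 9 cluster, all with 4 or fewer CpG; Mmp24 with 44 CpG reaches 123 in KO and 82.4 in WT cells.

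The MMP cluster on chromosome 9 holds 10 of the 46 genes (Mmp1a, Mmp1b, Mmp3, Mmp7, Mmp8, Mmp10, Mmp12, Mmp13, Mmp20 and Mmp27). The 8 of them with coordinates lie between 7272514 and 7699585 (mm10), a span of 427 kb. Their promoters have 0 to 4 CpG, against 2 to 44 (median 19.5) in the other 22 matched promoters. The median H3K27me3 of the cluster was 2.56 in KO and 1.54 in WT cells, where the other 36 genes had 14.3 in KO and 14.3 in WT cells. Median H3K27ac was also lower, with 2.47 in KO and 3.63 in WT cells and 2.29 in vitro KO and 1.95 in vitro WT cells, against 8.38 in KO, 8.65 in WT, 4.63 in vitro KO and 5.23 in vitro WT cells for the other 36. The cluster was thus low in both promoter marks. Within it Mmp10 and Mmp27 were past 2-fold in vitro and Mmp8 and Mmp1a in the other pair.

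In gene-body H3K36me3 5 genes of the family were higher and 5 lower in KO cells, with 36 past the floor. Of all 15479 genes past the floor, 20% were higher and 20.5% lower, so the family was near the background in both directions. Its median was 5.21 per kilobase in KO and 4.198 in WT cells, and the median log2 ratio over all 46 was 0.03, beside -0.01 over all genes. Mmp17 was lower, with 1.33 in KO and 20.3 in WT cells, a log2 ratio of -2.53. Mmp11 had 5.71 in KO and 28.7 in WT cells (-1.91), and Mmp28 5.14 in KO and 25.8 in WT cells (-1.87). These 3 genes were the lowest ratios of the family and were among the 5 highest levels of the WT library. Adamts5 had 1.41 in KO and 8.96 in WT cells, and Mmp13 2.74 in KO and 12.2 in WT cells.

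On the higher side, Mmp25, a leukocyte membrane-type MMP, had 6.10 in KO and 1.13 in WT cells, a log2 ratio of 1.21. The other 4 were listed at 0 in WT cells, so no fold is given: Mmp21 had 10.3, Mmp27 9.63, Mmp9 7.78 and Timp4 6.56 in KO cells. Across all genes called in this mark, 50.3% had a 0 in 1 of the libraries. Adamts8 and Mmp20 were also listed at 0 in WT cells, with 2.49 and 5.17 in KO cells, and Mmp1a, Mmp8 and Mmp12 at 0 in KO cells, with 0.0550, 2.44 and 1.05 in WT cells. Mmp10 and Timp1 were listed at 0 in both, although Timp1 had promoter H3K27ac of 9.88 to 26.8 in the 4 libraries. The gene bodies of the 46 genes held a median of about 185 fragments in KO and 244.5 in WT cells.

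Differences in H3K36me3 were mostly in short genes. Of the 17 genes under 20 kb, 14 were past the floor, and of those 5 were higher and 2 lower in KO cells. Among all 5626 genes of that length past the floor, 62.1% were 2-fold different. Of the 27 genes of at least 20 kb, 22 were past the floor, and of those 0 were higher and 3 lower (Mmp17, Mmp28 and Adamts5). Among all 7401 genes of that length past the floor, 18.9% were 2-fold different. Mmp23 was the highest of the family in KO cells, at 33.9, with 23.6 in WT cells, and Adamts4, second in both, had 14.0 in KO and 27.9 in WT cells. Among the inhibitors and their partners, Timp3 had 12.8 in KO and 15.3 in WT cells, Timp2 11.4 in KO and 7.91 in WT cells, Mmp14 9.18 in KO and 8.06 in WT cells, and Mmp2 9.58 in KO and 6.11 in WT cells. Mmp7 had 7.64 in KO and 3.92 in WT cells, Adamts1 3.27 in KO and 2.11 in WT cells, Adamts2 5.22 in KO and 5.72 in WT cells, and Adamts12 4.93 in KO and 3.34 in WT cells. None of these 10 genes, Mmp23 and Adamts4 included, differed by 2-fold.

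Between the H3K27ac settings, the libraries labelled vitro had less signal at several promoters of the family. In KO cells 3 genes were higher and 10 lower in the vitro library, with 37 past the floor, where 6.89% of all genes were higher and 12.6% lower. In WT cells 1 was higher and 5 lower, with 39 past the floor, where 13% of all genes were higher and 5.66% lower. Centred on the median of all genes, 8.61% were higher and 9.98% lower in KO cells, with 3 higher and 9 lower in the family, and 7.74% higher and 9.81% lower in WT cells, with 0 higher and 10 lower in the family. The median log2 ratio over the 46 was -0.10 in KO and -0.30 in WT cells, beside -0.02 and 0.08 over all genes. Setting and any difference in preparation between the libraries cannot be told apart.

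Mmp2, Mmp15 and Adamts9 were lower in vitro in both genotypes. Mmp2 had 0.800 in vitro and 5.37 in other KO cells, and 1.95 in vitro and 7.71 in other WT cells, with log2 ratios of -1.31 and -1.13. The ratios were -1.26 in KO and -1.63 in WT cells for Mmp15, and -1.37 in KO and -1.06 in WT cells for Adamts9. In KO cells alone Adamts17 (-2.04), Adamts2 (-1.66), Mmp8 (-1.59), Mmp9 (-1.22), Mmp23 (-1.17), Mmp21 (-1.15) and Adamts8 (-1.01) also passed 2-fold, and in WT cells Timp3 (-1.53) and Adamts16 (-1.12). On the higher side stood Mmp13, with 10.8 in vitro and 3.18 in other KO cells, Mmp1a (1.18) and Mmp27 (1.02) in KO cells, and Timp2, with 69.4 in vitro and 29.7 in other WT cells. Fibroblast marker sums went the same way as Mmp2, with 66.6 in vitro and 125 in other KO cells, and 28.8 in vitro and 79.7 in other WT cells. Within that list Col3a1 went the other way in KO cells, with 17.7 in vitro and 14.0 in other cells. Endothelial sums were also lower in vitro, at 15.4 against 37.2 in KO and 14.2 against 35.0 in WT cells. Acinar sums were lower too, at 12.0 against 25.7 in KO and 17.0 against 45.3 in WT cells. Leukocyte sums were higher in vitro, at 125 against 81.0 in KO and 72.6 against 68.9 in WT cells. They rested on Ly6g in KO cells, with 56.8 in vitro and 8.82 in other cells, and on Cd68 in WT cells, with 30.1 and 16.2. The leukocyte medians went the other way, at 2.17 in vitro against 3.45 in KO and 3.965 against 4.71 in WT cells. The part of any cell type in these values was not tested.

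For context, 37 other genes of matrix turnover (plasminogen activators and their inhibitors, cathepsins, ADAM proteases, ADAMTS-like proteins and protease regulators) were read the same way. In H3K27ac without the vitro label 32 of the 37 passed the floor and 2 were higher, where 13.1% of all genes were: Furin, the convertase that activates membrane-type MMPs, with 56.6 in KO and 20.4 in WT cells, and Pcolce, a procollagen proteinase enhancer, with 50.8 in KO and 18.6 in WT cells. Hpse, the heparanase, was the only one lower, where 4.32% of all genes were, with 3.73 in KO and 13.7 in WT cells. In the vitro pair 0 of 37 differed by 2-fold, with 30 past the floor, where 3.95% of all genes were higher and 3.57% lower. In H3K27me3 6 were higher and 3 lower of 33 past the floor, near the shares of all genes (15.4% and 6.92%), led by Ctsb, a lysosomal cathepsin, with 4.84 in KO and 0.328 in WT cells. Adamtsl4 and Serpine2, an inhibitor of plasminogen activators, followed at log2 ratios of 1.32 and 1.30, and the lower ones were Serpinb2 (-1.50), Hpse (-1.15) and Spock1 (-1.06). In H3K36me3 5 were higher and 4 lower of 31 past the floor, where 20% of all genes were higher and 20.5% lower, among them Adamtsl4 with 27.7 in KO and 5.495 in WT cells and Ctsl with 1.88 in KO and 12.6 in WT cells. Between the settings 2 were higher and 4 lower in vitro of 31 past the floor in KO cells, where 6.89% and 12.6% of all genes were. In WT cells 4 were higher and 4 lower of 34, where 13% and 5.66% of all genes were. Plaur, the urokinase receptor, was higher in vitro in both genotypes, with 124 in vitro and 57.7 in other KO cells and 110 in vitro and 33.2 in other WT cells.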

How the data were processed

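The authors deposited 1 table with 25450 rows and 8 columns of signal, which is average base coverage over a gene's promoter or body in units the labels do not explain. Bowtie2 2.4.2, HOMER and MACS2 2.2.7.1 were used with mm10, per the submitters' processing notes, and neither their order nor their settings are stated. Whole reads were recovered from the deposited coverage: promoter values times 6000 were whole multiples (tolerance 0.0055) of 1 step per library in 99.9% to 100% of values, and 67.4% to 81.7% of the multiples were even, so 1 step was read as 1 read end and 2 as a fragment. A value may hold a fraction of a fragment where only 1 end lies in the window. For H3K36me3, 90.6% (KO) and 86.3% (WT) of the values whose gene span could be used were whole, so those fragments are approximate. With 1 library per group no count test could be run on them.

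Where a gene had several rows the one with the highest mean was kept (199 rows dropped), and ratios, floors and shares were computed over all 25251 genes with Python 3.11.15, numpy 2.4.6, pandas 2.3.3 and scipy 1.17.1. Ratios are log2 ratios of the deposited signal with the floor added. Figures used matplotlib 3.10.9. The members, the related list, the marker lists and the thresholds were chosen with earlier results of these data known. Named were Mmp2, Mmp7, Mmp9, Mmp11, Mmp13, Mmp14, the TIMPs, Adamts1, Adamts2 and Adamts12, every member past 2-fold, the 3 highest of each library and those at 0 in H3K36me3; other members described, among them Mmp1b, Mmp3, Mmp12, Adamts13 and Adamts20, were chosen after their values were seen. Of the related list, up to 3 per direction and comparison could be named. The ratio code was tested on simulated data. The settings changed in turn were the pseudocount (divided or multiplied by 5), the filter (none, or at the median), centred, quantile-normalized or trend-corrected ratios, the first row of a gene, and 1.5-fold. For 14 genes, Adamts4, Adamts5, Adamts6, Adamts7, Adamts8, Adamts10, Adamts15, Adamts16, Adamts19, Mmp2, Mmp9, Mmp16, Mmp17 and Mmp19, no promoter letters were used. The values of 1 neighbouring gene are not reported here.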

Additional observations from a re-analysis of the deposited data

Results flagged for a closer look

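Mmp21, an MMP of embryonic patterning, had opposite directions in the 2 H3K27ac pairs. It had 3.89 per kilobase in vitro KO and 7.36 in vitro WT cells, but 11.4 in KO and 5.66 in WT cells without the vitro label, so its log2 KO over WT ratio in the vitro pair minus that in the other pair was -1.37. With 1 library per group the difference was not tested.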

How the results depend on the processing

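No paired analysis was possible because each group has 1 library. Of 904 recomputed ratios of named genes, 801 kept their side of 2-fold, 93 lost it, 10 gained it and 0 changed sign while called. Of 31 2-fold differences between genotypes, 8 held under every alternative run: Adamts14 (1.14 to 2.10), Adamts4 (1.45 to 1.74), Timp3 (1.17 to 2.67) and Mmp23 (-1.82 to -1.34) in vitro H3K27ac, Mmp15 (1.36 to 1.84) in H3K27me3, and Mmp11, Mmp17 and Mmp28 in H3K36me3. Adamts4 in H3K27ac without the vitro label was at 0.43 to 1.30 and lost 2-fold under a larger pseudocount and under centring, quantile normalization and trend correction.

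Counts of genes of the family at 2-fold moved as follows, in the order higher then lower. With the pseudocount divided by 5, H3K27ac had 4 lower (2 before), vitro H3K27ac 6 lower (2), H3K27me3 7 higher (4), H3K36me3 8 higher (5), and vitro over other WT cells 2 higher (1) and 12 lower (5). With it multiplied by 5, the counts were 0 and 0 (4 and 2), 3 and 1 (7 and 2), 1 and 0 (4 and 2), and 0 and 3 (5 and 5), and between settings 0 and 1 in KO (3 and 10) and 0 and 0 in WT cells (1 and 5). With the filter at the median, there were 0 lower in H3K27ac, 1 lower in vitro H3K27ac, 2 higher in H3K27me3, 2 higher in H3K36me3, and 1 and 2 between settings in KO cells. Centring gave 1 higher in H3K27ac, 1 lower in vitro H3K27ac, 2 higher in H3K27me3, and 0 and 10 between settings in WT cells. Quantile normalization gave 1 lower in vitro H3K27ac, and 2 and 4 in H3K27me3. Trend correction gave 1 lower in vitro H3K27ac, 1 higher in H3K27me3 and 5 lower between settings in KO cells. At 1.5-fold there were 11 and 6 in H3K27ac, 7 lower in vitro H3K27ac, 10 and 8 in H3K27me3, 10 higher in H3K36me3, 16 lower between settings in KO cells, and 5 and 13 in WT cells. In H3K36me3, genes of at least 20 kb gave 0 and 3, and leaving out genes at 0 in either library, an alternative chosen after seeing the data, gave 1 higher. The other 65 counts stayed within 1.5 times. For each move beyond those that follow from fewer genes tested or a lower threshold, the cause was not tested.

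Over all genes, the share higher in H3K27ac without the vitro label was 13.1%, and 1.60% to 33.3% over the alternatives. Between settings in WT cells, 13% were higher and 5.66% lower, and 7.74% and 9.81% after centring. Depth limits the low promoters most, such as Mmp3 with 1 fragment in 1 library. The libraries carry no replicate, so the spread between cultures is unknown.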
